A study of Mus musculus with 10 samples.

Results

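Triglyceride, the storage lipid of adipocytes, is built and broken down by a short chain of enzymes, and 10 genes of that chain were followed in mouse mammary fat pads. They were chosen by name for their function, as 5 genes of synthesis (Gpam, Agpat2, Lpin1, Dgat1 and Dgat2) and 5 genes of lipolysis and its control (Pnpla2, Lipe, Mgll, Abhd5 and G0s2), out of 30319 gene symbols with values. All 10 were found and all 10 passed the filter on low values, which 16932 genes passed. Synthesis adds fatty acids to a glycerol backbone in successive steps, and lipolysis removes them in successive steps at the surface of the lipid droplet. White fat runs both at once, storing fatty acids after meals and releasing them during fasting.

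The pads were inguinal subcutaneous mammary fat from female FVB mice, each pad a mixture of adipocytes and other cells, and RNA was sequenced after ribosomal RNA depletion. Mice were null for Fap, the gene of a cell-surface protease (fibroblast activation protein, FAP) found on activated fibroblasts, or were wild type. They ate a high-fat diet with 60% of calories from fat (HFD) or an ingredient-matched low-fat diet with 10% (LFD) from week 12 to week 30 of age. The groups were Null_HFD (Fap-null, high-fat, n = 3), WT_HFD (wild type, high-fat, n = 2), Null_LFD (Fap-null, low-fat, n = 3) and WT_LFD (wild type, low-fat, n = 2), and the series calls them biological replicates. Its title asks about FAP in adipogenic differentiation and in mTOR signalling through the matrix. The labels do not say which part of Fap is disrupted or whether pads were pooled.

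Values are in TPM, a relative transcript abundance scaled for transcript length, so levels can be compared between genes, but they keep no read numbers and the depth is unknown. Per library, 14574 to 15700 genes had at least 1 TPM. Fap measured 29.1 ± 8.32 TPM in Null_HFD and 53.2 ± 22.0 TPM in WT_HFD pads, and 19.7 ± 2.31 TPM in Null_LFD and 42.3 ± 4.33 TPM in WT_LFD pads (SD, n = 3, 2, 3 and 2). Fap did not pass between the genotypes (limma, adjusted p = 0.686), and on the high-fat diet the groups overlapped, with 38.4 TPM in Null_HFD 2 and 37.7 TPM in WT_HFD 2. Fap transcript therefore does not check the genotype label of each single library, and group names stand for the libraries so labelled. All 12 mature adipocyte markers were above 0 in every library. Null_HFD 3 and WT_HFD 2 stood apart, since their 12 lymph node markers summed to 3602 and 1576 TPM against 15.4 to 72.5 TPM in the other 8 libraries. The adipocyte markers summed to 9796 to 30014 TPM in Null_HFD, 24600 to 30677 TPM in WT_HFD, 16349 to 26838 TPM in Null_LFD and 26087 to 34649 TPM in WT_LFD, and Null_HFD 3 had the lowest sum. Luminal epithelium markers summed to 344 to 1234 TPM in Null_HFD, 1568 to 1663 TPM in WT_HFD, 1724 to 3641 TPM in Null_LFD and 523 to 1293 TPM in WT_LFD, and skeletal muscle markers to 147 to 6118, 339 to 3721, 4155 to 11429.6 and 2477 to 3597 TPM in the same 4 groups. Macrophage markers summed to 823 to 1979.7, 827 to 1094, 862 to 1157 and 685 to 747 TPM and brown or beige fat markers to 111 to 1404, 235 to 883, 439 to 1131 and 749 to 1795 TPM, again in that order, with no marker of either list at 0. The part of these cell types in the differences of the 10 genes was not tested, apart from the values without Null_HFD 3 and WT_HFD 2 and the values relative to the adipocyte markers given beside the results. The 12 adipocyte markers did not vary alike. Thrsp ran from 118 TPM (Null_HFD 3) to 3978 TPM (WT_LFD 1), and Cd36 from 500 TPM (Null_HFD 3) to 1741 TPM (WT_LFD 2). Values relative to this list are therefore not values per adipocyte. Leaving out a wild-type library leaves 1 library in its group. Values without Null_HFD 3 and WT_HFD 2 therefore rest on WT_HFD 1 alone for the WT_HFD group. In whole pads, fewer cells of a type and less RNA per cell cannot be told apart.

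All 10 transcripts were abundant. Averaged over the 10 libraries, Pnpla2 was the highest at 817 TPM, which placed it at rank 133 of all symbols, followed by Dgat2 at 619 TPM, Agpat2 at 438 TPM and Mgll at 437 TPM. Lipe averaged 260 TPM, G0s2 209 TPM, Dgat1 196 TPM and Abhd5 157 TPM. Gpam at 125 TPM and Lpin1 at 90.7 TPM, at rank 1531, were the lowest of the 10. Every gene overlapped its neighbours in this order in its range over the libraries. Pnpla2 was the highest of the 10 genes in 7 libraries, Dgat2 in 2 and Agpat2 in 1, while Lpin1 was the lowest in 7 and Gpam in 3. Together the 10 genes took from 0.217% (Null_HFD 3) to 0.493% (Null_HFD 2) of all TPM.

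**Figure D1:**
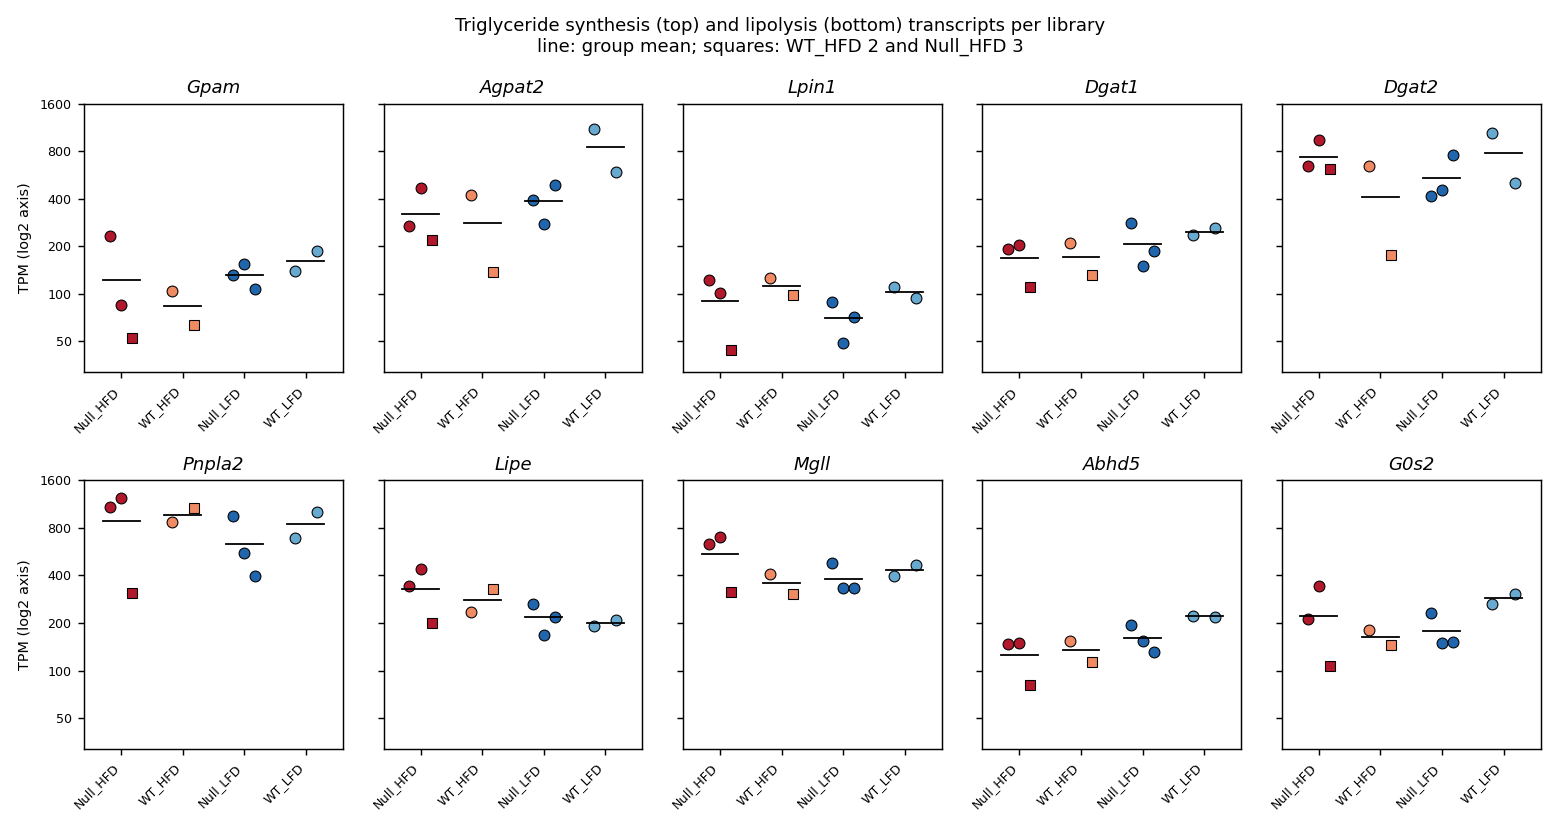
TPM of each gene in each library on a shared log2 axis, with the synthesis genes in the upper row, the lipolysis genes in the lower row and lines at the group means (n = 3, 2, 3 and 2). Squares are Null_HFD 3 and WT_HFD 2, the libraries with high lymph node transcripts, and the WT_LFD pads sit above the other groups for Agpat2 (593 and 1109 TPM) and Abhd5 (219.5 and 222 TPM). The share of all genes with that placing was not computed.

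Synthesis starts with Gpam, the mitochondrial glycerol-3-phosphate acyltransferase, which adds the first fatty acid. Gpam is on chromosome 19, minus strand, at 55067268 to 55127238 (GENCODE M21, GRCm38). Gpam measured 232, 85.1 and 52.3 TPM in Null_HFD pads and 104 and 63.5 TPM in WT_HFD pads. On the low-fat diet it measured 132, 154 and 107 TPM in Null_LFD pads and 139 and 186 TPM in WT_LFD pads. The Null_HFD pads held both the highest and the lowest value of the 10 libraries, a 4.43-fold range within 1 group. In wild type both high-fat pads lay below both low-fat pads. Averaged over diets, the log2 difference of null minus wild type was 0.00 (SE 0.37, 95% interval -0.84 to 0.84), and averaged over genotypes that of high-fat minus low-fat was -0.66 (SE 0.37, interval -1.50 to 0.18). Neither passed (limma, adjusted p = 0.999 and 0.548). The diet difference was -0.25 without Null_HFD 3 and WT_HFD 2.

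Agpat2 encodes the endoplasmic reticulum enzyme that adds the second fatty acid, and its loss causes lipodystrophy in people and mice. The gene is on the minus strand of chromosome 2 at 26593057 to 26604417 and overlaps the genes Egfl7 and Gm20532 on the other strand, so its values are uncertain to the extent that the counting ignored strand, which is not given in the sources used here. Agpat2 measured 269, 467 and 221 TPM in Null_HFD pads and 425 and 138 TPM in WT_HFD pads. It measured 394, 279 and 489 TPM in Null_LFD pads and 1109 and 593 TPM in WT_LFD pads. Both WT_LFD pads lay above all 8 other libraries, and the lowest value was in WT_HFD 2. How many of all genes placed both WT_LFD pads highest was not computed. The same WT_LFD pads had the lowest macrophage marker sums (747 and 685 TPM, against at least 823 TPM in the other 8 libraries). WT_LFD 2 had the highest brown or beige fat sum, 1795 TPM, against 111 and 235 TPM in Null_HFD 3 and WT_HFD 2, the lowest. WT_LFD 1, which had the higher Agpat2, had a brown or beige fat sum of 749 TPM. That was below Null_HFD 1 (1404 TPM), Null_LFD 1 (1131 TPM) and WT_HFD 1 (883 TPM). The part of either in the placing of Agpat2 was not tested. The spread from lowest to highest library, 8.04-fold, was the widest of the 10 genes. Averaged over genotypes, the log2 difference of Agpat2 between high-fat and low-fat pads was -1.03 (SE 0.37, 95% interval -1.86 to -0.20), which did not pass over all genes (limma, adjusted p = 0.513). Within wild type the diet difference was -1.74 (SE 0.57, interval -3.02 to -0.45, limma adjusted p = 0.761). That value rested on the 2 WT_HFD pads, as it was -2.55 without WT_HFD 1 and -0.93 without WT_HFD 2, each with 1 WT_HFD pad left. Without Null_HFD 3 and WT_HFD 2 the averaged diet difference was -0.51 (limma adjusted p = 0.889).

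Between the genotypes, Agpat2 differed by -0.39 averaged over diets (SE 0.37, 95% interval -1.22 to 0.44, limma adjusted p = 0.98). On the low-fat diet the difference was -1.10 (SE 0.52, interval -2.28 to 0.07, limma adjusted p = 0.949). On the high-fat diet it had the other sign, 0.32 (SE 0.52, interval -0.85 to 1.49, limma adjusted p = 1). All 3 Null_LFD pads lay below both WT_LFD pads, while the high-fat groups overlapped. The low-fat difference was -0.65 without WT_LFD 1 and -1.55 without WT_LFD 2, each with 1 WT_LFD pad left. On the 8 libraries left without Null_HFD 3 and WT_HFD 2, its SE was 0.37, and it did not pass (limma, adjusted p = 0.585).

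Agpat2, Abhd5 and Lipe had the smallest p of the 10 genes between the diets, and the promoter windows of these 3 genes are shown for that reason, from 250 bases before to 50 bases after each annotated start (RefSeq, GRCm38.p6). The first is Agpat2 at chr2:26604368-26604667 on the minus strand, with 3 matches to the GC box GGGCGG in capitals.
Agpat2: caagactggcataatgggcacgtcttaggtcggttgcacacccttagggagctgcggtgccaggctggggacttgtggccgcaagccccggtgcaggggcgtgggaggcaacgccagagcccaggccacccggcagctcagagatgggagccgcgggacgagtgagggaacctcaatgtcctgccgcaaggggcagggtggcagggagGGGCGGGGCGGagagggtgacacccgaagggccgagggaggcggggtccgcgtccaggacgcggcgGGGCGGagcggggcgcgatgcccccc

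Lpin1 encodes lipin 1, the phosphatidic acid phosphatase of adipocytes, which yields diacylglycerol and also acts in the nucleus as a transcriptional coactivator. It lies on the minus strand of chromosome 12 at 16535669 to 16610966. Lpin1 measured 123, 101 and 44.2 TPM in Null_HFD pads, against 126 and 98.0 TPM in WT_HFD pads. It measured 88.6, 49.1 and 71.9 TPM in Null_LFD pads, against 111 and 94.4 TPM in WT_LFD pads. All 3 Null_LFD pads lay below both WT_LFD pads, and Null_HFD 3 was the lowest library. Averaged over diets the genotype difference was -0.51 (SE 0.29, 95% interval -1.17 to 0.15, limma adjusted p = 0.98). On the high-fat diet it was -0.43 (SE 0.41, limma adjusted p = 1), and 0.0057 without Null_HFD 3. The averaged diet difference was 0.19 (SE 0.29, limma adjusted p = 0.818), and it was 0.50 (limma adjusted p = 0.875) without Null_HFD 3 and WT_HFD 2.

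The last step, from diacylglycerol to triglyceride, is catalysed by DGAT1 and DGAT2, unrelated enzymes of which DGAT2 is tied to newly made fatty acids. Dgat1 lies on the minus strand of chromosome 15 at 76502015 to 76511953. It measured 192, 204 and 110.2 TPM in Null_HFD, 211 and 132 TPM in WT_HFD, 281, 150.2 and 186 TPM in Null_LFD and 234 and 260.1 TPM in WT_LFD pads. Its values were among the most even of the 10 genes, with a 2.55-fold range, and Null_HFD 3 was lowest. In wild type both high-fat pads lay below both low-fat pads. Dgat1 differed by -0.17 between the genotypes (SE 0.25, 95% interval -0.74 to 0.39) and by -0.42 between the diets (SE 0.25, interval -0.99 to 0.14), and neither passed (limma, adjusted p = 0.98 and 0.552). The diet difference was -0.12 without Null_HFD 3 and WT_HFD 2.

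Dgat2 lies on the minus strand of chromosome 7 at 99153658 to 99182719. It measured 642, 940.2 and 616 TPM in Null_HFD pads and 648 and 175 TPM in WT_HFD pads. It measured 414, 451 and 759 TPM in Null_LFD pads and 1045 and 504 TPM in WT_LFD pads. WT_HFD 2, at 175 TPM, lay far below the other 9 libraries, whose lowest was 414 TPM. Averaged over diets the genotype difference was 0.31 (SE 0.39, 95% interval -0.58 to 1.19, limma adjusted p = 0.98), and without WT_HFD 2 it was -0.16. On the high-fat diet the genotype difference was 1.09 (SE 0.55, interval -0.16 to 2.34, limma adjusted p = 1). This value was 0.15 without WT_HFD 2 and 2.03 without WT_HFD 1, each with 1 WT_HFD pad left. The averaged diet difference was -0.32 (SE 0.39, limma adjusted p = 0.771) and changed sign to 0.15 without WT_HFD 2. Within wild type the diet difference was -1.10 (SE 0.61, limma adjusted p = 0.761), and -0.16 without WT_HFD 2.

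Lipolysis starts with Pnpla2, the gene of adipose triglyceride lipase (ATGL), which removes the first fatty acid. The gene is on the plus strand of chromosome 7 at 141455198 to 141460743. Pnpla2 measured 1092, 1239.9 and 308 TPM in Null_HFD pads and 873 and 1062 TPM in WT_HFD pads. It measured 954, 551 and 397 TPM in Null_LFD pads and 691 and 1005 TPM in WT_LFD pads. The null pads spread more widely than the wild-type pads on both diets, with Null_HFD 3 the lowest. The genotype difference averaged over diets was -0.43 (SE 0.42, 95% interval -1.38 to 0.52, limma adjusted p = 0.98), and -0.11 without Null_HFD 3. The averaged diet difference was 0.27 (SE 0.42, interval -0.68 to 1.22, limma adjusted p = 0.826), and 0.52 without Null_HFD 3 and WT_HFD 2.

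ATGL is activated by ABHD5, also called CGI-58, and inhibited by the product of G0s2. Abhd5 lies on the plus strand of chromosome 9 at 122351608 to 122381524, where an antisense gene, A730085K08Rik, overlaps its end. Its promoter window at chr9:122351366-122351665 on the plus strand holds 1 GC box match and 1 match to AGGTCA, the core of many nuclear receptor sites, here on the other strand as TGACCT, both in capitals.
Abhd5: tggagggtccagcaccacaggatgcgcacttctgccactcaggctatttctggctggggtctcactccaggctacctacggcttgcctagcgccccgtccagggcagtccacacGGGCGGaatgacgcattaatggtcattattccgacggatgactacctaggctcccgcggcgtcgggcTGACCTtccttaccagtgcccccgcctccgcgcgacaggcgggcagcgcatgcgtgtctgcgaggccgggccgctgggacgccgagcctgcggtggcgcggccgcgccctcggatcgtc
Abhd5 measured 147, 151 and 81.6 TPM in Null_HFD pads, against 155 and 114 TPM in WT_HFD pads. It measured 194, 155 and 131 TPM in Null_LFD pads, against 222 and 219.5 TPM in WT_LFD pads. Both WT_LFD pads were higher than all 8 other libraries, the same placing as for Agpat2 and beside the same low macrophage sums. Its share over all genes was not computed, so the recurrence has no reference. Averaged over genotypes, its log2 difference of high-fat minus low-fat was -0.55 (SE 0.21, 95% interval -1.03 to -0.07), which did not pass over all genes (limma, adjusted p = 0.513). The difference was -0.73 within wild type (SE 0.33, interval -1.47 to 0.01, limma adjusted p = 0.761). Within null it was -0.37 (SE 0.27, interval -0.98 to 0.23, limma adjusted p = 0.804), and -0.09 without Null_HFD 3. The averaged diet difference was -0.30 without Null_HFD 3 and WT_HFD 2 (limma adjusted p = 0.885). The genotype difference was -0.30 averaged over diets (SE 0.21, interval -0.78 to 0.18, limma adjusted p = 0.98) and -0.48 on the low-fat diet (SE 0.30, limma adjusted p = 0.949), where all 3 null pads lay below both wild-type pads.

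G0s2 is a short gene on the minus strand of chromosome 1 at 193272161 to 193273217, inside the span of Lamb3 on the other strand, so its values carry the same uncertainty about strand as Agpat2. It measured 213, 342 and 107 TPM in Null_HFD pads and 181 and 144 TPM in WT_HFD pads. It measured 231, 149 and 152 TPM in Null_LFD pads and 265 and 307 TPM in WT_LFD pads. On the low-fat diet all null pads were below both wild-type pads, and within wild type both high-fat pads were below both low-fat pads. The low-fat genotype difference was -0.71 (SE 0.42, 95% interval -1.67 to 0.24, limma adjusted p = 0.949). Averaged over diets the genotype difference was -0.21 (SE 0.30, limma adjusted p = 0.98), and 0.010 without Null_HFD 3. The averaged diet difference was -0.31 (SE 0.30, limma adjusted p = 0.703), and -0.01 without Null_HFD 3 and WT_HFD 2.

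Lipe encodes hormone-sensitive lipase, which takes diacylglycerol to monoacylglycerol under the control of catecholamines and insulin. The gene is on the minus strand of chromosome 7 at 25379527 to 25398710, inside the span of the antisense gene 4732471J01Rik. RefSeq gives 2 promoter windows, chr7:25395938-25396237 and chr7:25390063-25390362, both on the minus strand. The first holds 6 GC box matches and 1 match to the E-box CACGTG in capitals, and the second holds no match to any motif searched.
Lipe window 1: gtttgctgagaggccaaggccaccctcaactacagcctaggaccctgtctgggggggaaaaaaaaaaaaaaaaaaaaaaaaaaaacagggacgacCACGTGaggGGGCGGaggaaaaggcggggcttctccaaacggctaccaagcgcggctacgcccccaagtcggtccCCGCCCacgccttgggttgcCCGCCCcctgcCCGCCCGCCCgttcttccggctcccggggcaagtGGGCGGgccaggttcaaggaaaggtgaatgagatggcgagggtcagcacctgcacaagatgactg
Lipe window 2: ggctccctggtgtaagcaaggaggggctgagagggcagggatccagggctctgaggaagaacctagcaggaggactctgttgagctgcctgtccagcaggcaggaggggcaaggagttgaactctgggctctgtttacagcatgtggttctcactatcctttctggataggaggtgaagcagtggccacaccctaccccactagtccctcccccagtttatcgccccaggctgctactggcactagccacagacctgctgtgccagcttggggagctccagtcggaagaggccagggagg
Lipe measured 344, 438 and 201 TPM in Null_HFD pads, against 265, 169 and 218 TPM in Null_LFD pads. In wild type it measured 234 and 328 TPM in WT_HFD pads, against 191 and 210.4 TPM in WT_LFD pads. Both WT_HFD pads lay above both WT_LFD pads, while among null pads Null_HFD 3 fell inside the low-fat range. The averaged diet difference was 0.50 (SE 0.24, 95% interval -0.03 to 1.04, limma adjusted p = 0.529). Within null the diet difference was 0.54 (SE 0.30, interval -0.14 to 1.23, limma adjusted p = 0.787). Without Null_HFD 3 and WT_HFD 2 it was 0.86 (SE 0.23), which again did not pass (limma, adjusted p = 0.411). The genotype difference averaged over diets was 0.13 (SE 0.24, interval -0.41 to 0.67, limma adjusted p = 0.984), and 0.41 (limma adjusted p = 0.778) without both libraries.

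Mgll encodes monoacylglycerol lipase, which releases the last fatty acid. It is on the plus strand of chromosome 6 at 88724412 to 88828360, with short unclassified genes and an antisense gene inside or across its span. Mgll measured 629, 704 and 315 TPM in Null_HFD pads, 409 and 305 TPM in WT_HFD pads, 479.9, 335 and 332 TPM in Null_LFD pads and 395 and 466 TPM in WT_LFD pads. Null_HFD 1 and 2 were the highest libraries, and Null_HFD 3 was near the lowest. On the high-fat diet the genotype difference was 0.55 (SE 0.36, 95% interval -0.26 to 1.36, limma adjusted p = 1), and without Null_HFD 3 and WT_HFD 2 it was 0.70. Within null the diet difference was 0.46 (SE 0.32, limma adjusted p = 0.804), and without both libraries it was 0.82 (SE 0.22, limma adjusted p = 0.427). Averaged over diets the genotype difference was 0.18 (SE 0.25, interval -0.39 to 0.75), and averaged over genotypes the diet difference was 0.09 (SE 0.25, interval -0.48 to 0.66), with limma adjusted p = 0.98 and 0.913.

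RefSeq promoter windows were found for 8 of the 10 genes, 11 windows in all, and 6 motifs were searched on both strands. The GC box GGGCGG was in 8 of the 11 windows, against 35.7% of all 32851 windows in the table. AGGTCA was in 3 windows, of Gpam, Lpin1 and Abhd5, against 16.3% of all windows, and CACGTG in 2, of Lipe and Mgll, against 7.15%. CCAAT was in 1 window, of Gpam, against 37.4%, while TATAAA (13.6%) and the cyclic AMP response element TGACGTCA (1.79%) were in 0. These counts describe letters in the windows and not binding.

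The genotype comparison over both diets set 6 null against 4 wild-type libraries. None of the 10 genes was called (limma, adjusted p at most 0.05), beside 0% of all genes tested, and none had an unadjusted p under 0.05, beside 4.19%. Among settings that left more than 1 library in every group, 1 of the 10 had such a p without Null_HFD 1. The ranges of the null and wild-type libraries overlapped for all 10 genes, where 0.921% of all genes tested did not overlap. Of the 10 genes, 4 had positive differences and their median was -0.19, against a median of 0.08 over all genes tested. Differences ran from -0.51 for Lpin1 to 0.31 for Dgat2, and every 95% interval included 0. Relative to the adipocyte markers, 7 of the 10 differences were positive, with a median of 0.20 against 0.47 over all genes. Leaving out 1 library moved the median of the 10 between -0.32 (without WT_HFD 2) and 0.0021 (without WT_HFD 1), with 2 to 5 positive.

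On the low-fat diet 9 of the 10 genes had negative genotype differences, with a median of -0.48 against 0.15 over all genes tested. None was called, beside 0% of all genes, and none had an unadjusted p under 0.05, beside 4.43%. Counts under other settings are given only where more than 1 library was left in every group. There, such a p was found for 3 of the 10 with sample weights, 2 without Null_HFD 3 and 1 under median-of-ratios scaling. The share of all genes was not computed in those settings, and none of the 10 was called. Null and wild-type pads did not overlap for 4 genes, Agpat2, Lpin1, Abhd5 and G0s2, all lower in null, beside 25.4% of all genes tested in either direction. Of the 16932 genes tested, 1067 were lower in null without overlap and 3234 higher. Lipe, at 0.09, was the gene with a positive difference, and it was negative under median-of-ratios scaling, where all 10 were. That scaling moved the median of all genes to 0.01 and that of the 10 genes to -0.63. Relative to the adipocyte markers, 6 of the 10 were negative, with a median of -0.01 against 0.61 over all genes. Leaving out 1 library moved the median between -0.59 (without Null_LFD 1) and -0.31 (without Null_LFD 3), with 8 to 10 of the 10 negative.

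On the high-fat diet 6 of the 10 genotype differences were positive, with a median of 0.23 against 0.02 over all genes tested. None of the 10 was called, beside 0.0118% of all genes (2, Rps12l1 and Gm18588, neither of this pathway), and none had an unadjusted p under 0.05, beside 3.82%. Among settings that left more than 1 library in every group, 2 of the 10 had such a p without Null_HFD 3. There was 1 each with sample weights, with the replicate block and relative to the adipocyte markers. None of the 10 was called there, and the share of all genes was not computed. No gene separated null from wild-type pads, while 15.5% of all genes tested did. Null_HFD 3 and WT_HFD 2, with high lymph node transcripts, are in this comparison, and without both 6 of 10 were positive with a median of 0.34. Single libraries turned the sign of the median, which was -0.13 without WT_HFD 2, -0.09 without Null_HFD 2 and -0.03 without Null_HFD 1. It was 0.38 without WT_HFD 1, and without Null_HFD 3 it was 0.52 with all 10 positive. With the adipocyte markers as reference, 8 of the 10 were positive, with a median of 0.54 against 0.32 over all genes.

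**Figure D2:**
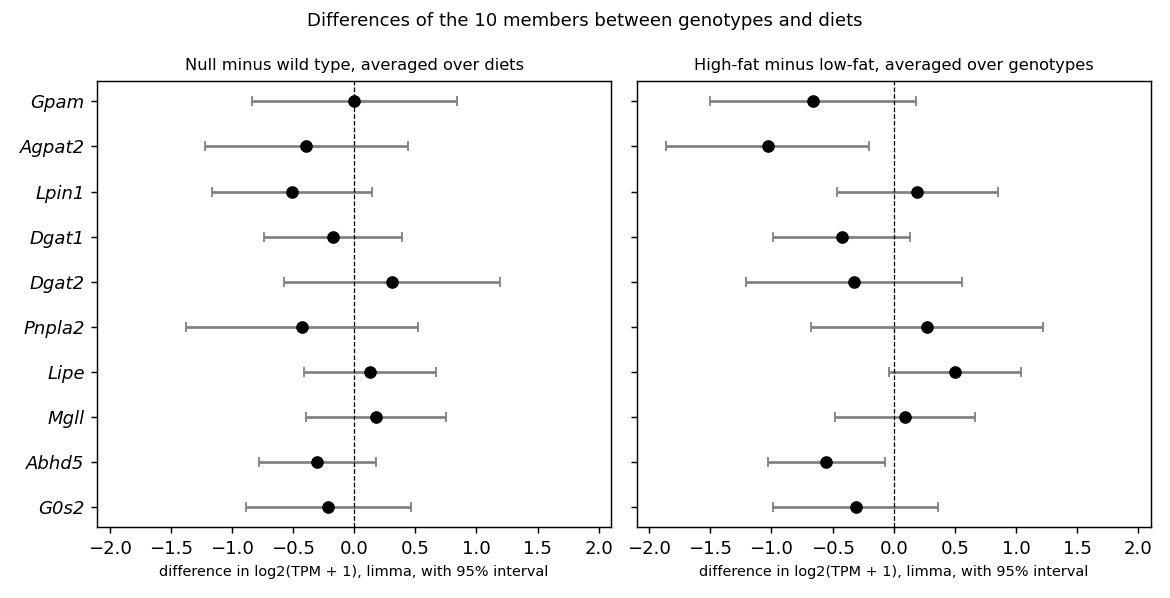
Differences in log2(TPM + 1) with 95% intervals from limma, for null minus wild type averaged over diets (left) and high-fat minus low-fat averaged over genotypes (right), with all 10 libraries in the fit. Every interval on the left includes 0, and on the right those of Agpat2 (-1.86 to -0.20) and Abhd5 (-1.03 to -0.07) do not, though neither gene passed over all genes (adjusted p = 0.513, limma).

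The diet comparison over both genotypes set 5 high-fat against 5 low-fat libraries. None of the 10 genes was called, beside 0% of all genes tested, and 2 of the 10, Agpat2 and Abhd5, had an unadjusted p under 0.05, beside 9.69% of all genes. No gene separated the diets, beside 2% of all genes. The synthesis genes other than Lpin1 had negative differences, 4 of 5, with a median of -0.42, and the lipases Pnpla2, Lipe and Mgll had positive ones while Abhd5 and G0s2 had negative ones, though Mgll was at -0.048 under median-of-ratios scaling. Over the 10 genes 4 were positive and the median was -0.32, against 0.11 over all genes tested. Without Null_HFD 3 and WT_HFD 2, 5 were positive and the median was 0.10 against 0.06. With the adipocyte markers as reference, 4 were positive and the median was -0.06 against 0.37. Leaving out 1 library gave medians from -0.49 without WT_HFD 1 to -0.04 without WT_HFD 2, and -0.18 without Null_HFD 3.

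In wild type 3 of the 10 genes had positive diet differences, and the median was -0.65 against 0.20 over all genes tested. None was called, beside 0% of all genes, and only Agpat2 had an unadjusted p under 0.05, beside 5.61%. The diets did not overlap for 6 genes, of which Gpam, Agpat2, Dgat1, Abhd5 and G0s2 were lower on the high-fat diet and Lipe higher, beside 45.1% of all genes tested in either direction. Of the 16932 genes tested, 1944 were lower on the high-fat diet without overlap and 5700 higher. Median-of-ratios scaling moved the median of all genes to 0.02 and that of the 10 to -0.86, with 1 positive. Taking values relative to the adipocyte markers moved these medians to 0.53 and -0.31, with 4 of the 10 positive. The median of the 10 was -0.20 without WT_HFD 2, against 0.10 over all genes, and -0.93 without WT_HFD 1. In null pads 6 of the 10 diet differences were positive, with a median of 0.23 against 0.04. None was called, beside 0.00591% of all genes (1, Gm18588), none had an unadjusted p under 0.05, beside 6.67%, and none separated the diets, beside 11.1%. Among settings that left more than 1 library in every group, 5 of the 10 had an unadjusted p under 0.05 without Null_HFD 3. With sample weights 2 had, and without Null_HFD 1 only 1. The share of all genes was not computed in those settings, and none of the 10 was called. Without Null_HFD 3 and WT_HFD 2, 7 of 10 were positive in null with a median of 0.60 against 0.02. Relative to the adipocyte markers 6 were positive in null, with a median of 0.41 against 0.22. Without Null_HFD 2 only 4 were positive and the median was -0.12, and it was 0.02 without Null_HFD 1, 0.06 without Null_LFD 2 and 0.07 without Null_LFD 3.

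The interaction asks whether the diet difference in null pads minus that in wild-type pads departs from 0. All 10 genes had positive values, with a median of 0.49 against -0.13 over all genes tested, where 38.2% of genes were positive. None was called, beside 0% of all genes, and none had an unadjusted p under 0.05, beside 4.14%. Among settings that left more than 1 library in every group, 4 of the 10 had such a p with sample weights and 2 without Null_HFD 3. None of the 10 was called there, and the share of all genes was not computed. Dgat2 had the largest value, 1.57 (SE 0.78, 95% interval -0.20 to 3.33), followed by Agpat2 at 1.42 (SE 0.74, interval -0.24 to 3.08) and G0s2 at 1.01 (SE 0.60, interval -0.34 to 2.36), all with a limma adjusted p of 1.00. Without WT_HFD 2 the values of Dgat2 and Agpat2 were 0.62 and 0.61, and without WT_HFD 1 they were 2.51 and 2.23, each with 1 WT_HFD pad left. Without Null_HFD 3 and WT_HFD 2 all 10 were positive, with a median of 0.73 against -0.07, and relative to the adipocyte markers 7 of 10 were positive, with a median of 0.33 against -0.29. The shared sign held for all 10 genes without WT_LFD 1, Null_LFD 1 or Null_HFD 3, but not without any other single library. It held for 7 genes without Null_HFD 2, for 8 without Null_HFD 1, Null_LFD 2, WT_HFD 1 or WT_HFD 2, and for 9 without Null_LFD 3 or WT_LFD 2. The median ran from 0.19 without Null_HFD 1 to 0.92 without Null_HFD 3, and was 0.29 without WT_HFD 2 and 0.78 without WT_HFD 1. The 10 genes are measured in the same libraries, so their shared sign is not 10 separate observations.

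The 10 genes moved together in part from library to library. Their mean, centred over the libraries on the log2(TPM + 1) scale, was 0.29, 0.40 and -0.72 in Null_HFD, 0.10 and -0.47 in WT_HFD, 0.17, -0.31 and -0.16 in Null_LFD and 0.38 and 0.33 in WT_LFD pads. The adipocyte marker list had its lowest centred mean, -1.33, in Null_HFD 3, where the 10 genes also had theirs. Of the 10 genes, 6 were lowest in Null_HFD 3 and 3 in WT_HFD 2. The median SD over the libraries was 0.52 for the 10 genes, against 0.40 for all genes tested. Likeness to the mean of the other genes of the 10 was uneven. For Dgat1 the SD of the difference from that mean was 0.23, against an SD of 0.43 for the gene itself. For Dgat2 it was 0.70 against 0.73, and for Lipe it was larger than the SD of the gene, 0.54 against 0.43. Other gene sets were not compared.

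**Figure D3:**
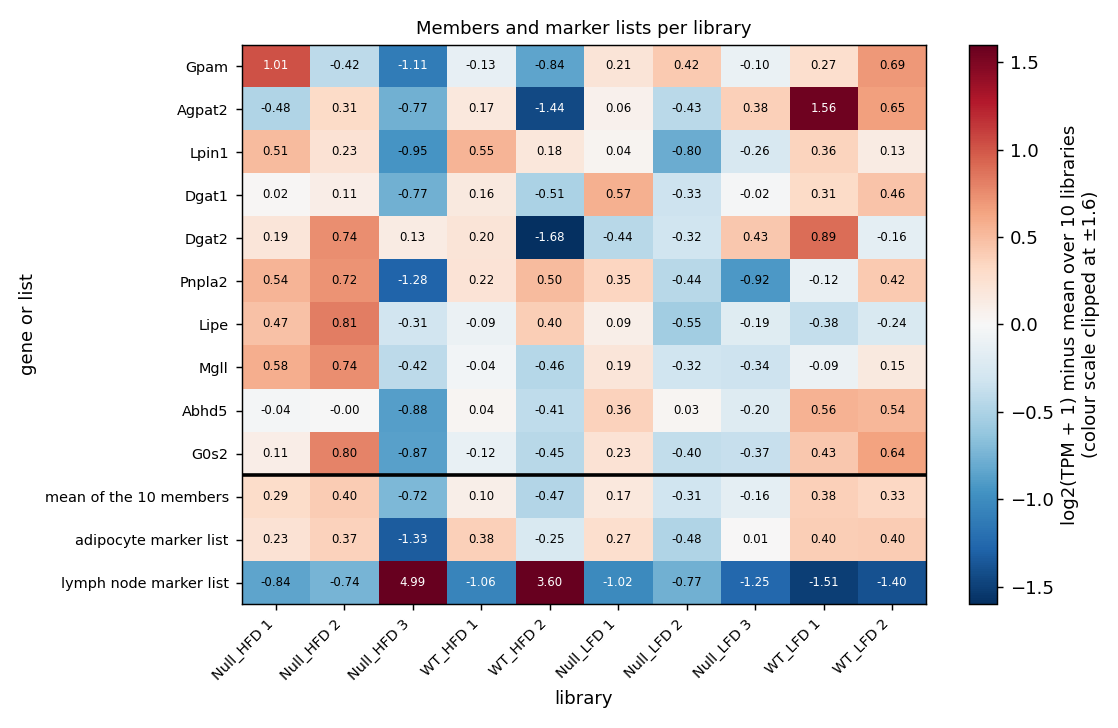
Centred log2(TPM + 1) of each gene (rows) in each library (columns), with the mean of the 10 genes and the centred means of the adipocyte and lymph node marker lists below the line; red is above and blue below the mean over the libraries. Null_HFD 3 is low for the mean of the 10 genes (-0.72) and for the adipocyte list (-1.33) and high for the lymph node list (4.99).

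Among the 45 pairs of the 10 genes, likeness was described by the SD over the libraries of the difference in log2 level, with no test. The closest pair was Dgat1 and Abhd5, with an SD of 0.19, followed by Dgat1 and G0s2 at 0.31. The least alike were Dgat2 and Pnpla2 at 1.09 and Agpat2 and Pnpla2 at 1.05. Among 11183 other genes of at least 5 TPM on average, the genes closest to the mean of the 10 were Ptp4a1 (SD 0.10), a protein tyrosine phosphatase gene, Copz2 (0.10), a coatomer subunit gene, Aco1 (0.13), the cytosolic aconitase gene, Mut (0.13), the methylmalonyl-CoA mutase gene, and Clybl (0.13), a mitochondrial lyase gene. All of these points share the same 10 libraries and their TPM scaling.

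Ratios between genes of linked steps were formed within each library, which removes the scaling of the library, and are given as a description. The summed TPM of the 5 synthesis genes over the 5 lipolysis genes was 0.601, 0.625 and 1.03 in Null_HFD and 0.818 and 0.311 in WT_HFD pads. It was 0.617, 0.797 and 1.31 in Null_LFD and 1.495 and 0.741 in WT_LFD pads. All groups overlapped in this ratio, and WT_HFD 2 lay below every other library. Dgat2 over Dgat1 was 3.34, 4.62 and 5.59 in Null_HFD pads, all above the 3.08 and 1.33 of WT_HFD pads. On the low-fat diet it was 1.48, 3.01 and 4.08 in Null_LFD and 4.46 and 1.94 in WT_LFD pads, which overlapped.

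The ratio of the inhibitor to the lipase, G0s2 over Pnpla2, was 0.195, 0.276 and 0.348 in Null_HFD, 0.208 and 0.136 in WT_HFD, 0.242, 0.270 and 0.382 in Null_LFD and 0.384 and 0.305 in WT_LFD pads. In wild type both high-fat pads lay below both low-fat pads, and in null pads the diets overlapped. The activator over the lipase, Abhd5 over Pnpla2, was 0.135, 0.121 and 0.265 in Null_HFD, 0.177 and 0.107 in WT_HFD, 0.204, 0.280 and 0.330 in Null_LFD and 0.322 and 0.218 in WT_LFD pads. Of the 5 high-fat pads, 4 lay below all 5 low-fat pads, and Null_HFD 3 lay inside the low-fat range. Lipe over Pnpla2 ran from 0.209 to 0.651 and Mgll over Lipe from 0.930 to 2.22.

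Lipe over Abhd5, a ratio formed after the diet differences were seen to have opposite signs, was 2.34, 2.91 and 2.46 in Null_HFD pads, against 1.36, 1.09 and 1.66 in Null_LFD pads. In wild type it was 1.51 and 2.88 in WT_HFD pads, against 0.857 and 0.958 in WT_LFD pads. Within each genotype every high-fat pad lay above every low-fat pad, Null_HFD 3 and WT_HFD 2 included. Across genotypes WT_HFD 1 (1.51) lay below Null_LFD 3 (1.66). Since the pair was picked for its values, no test was made.

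**Figure D4:**
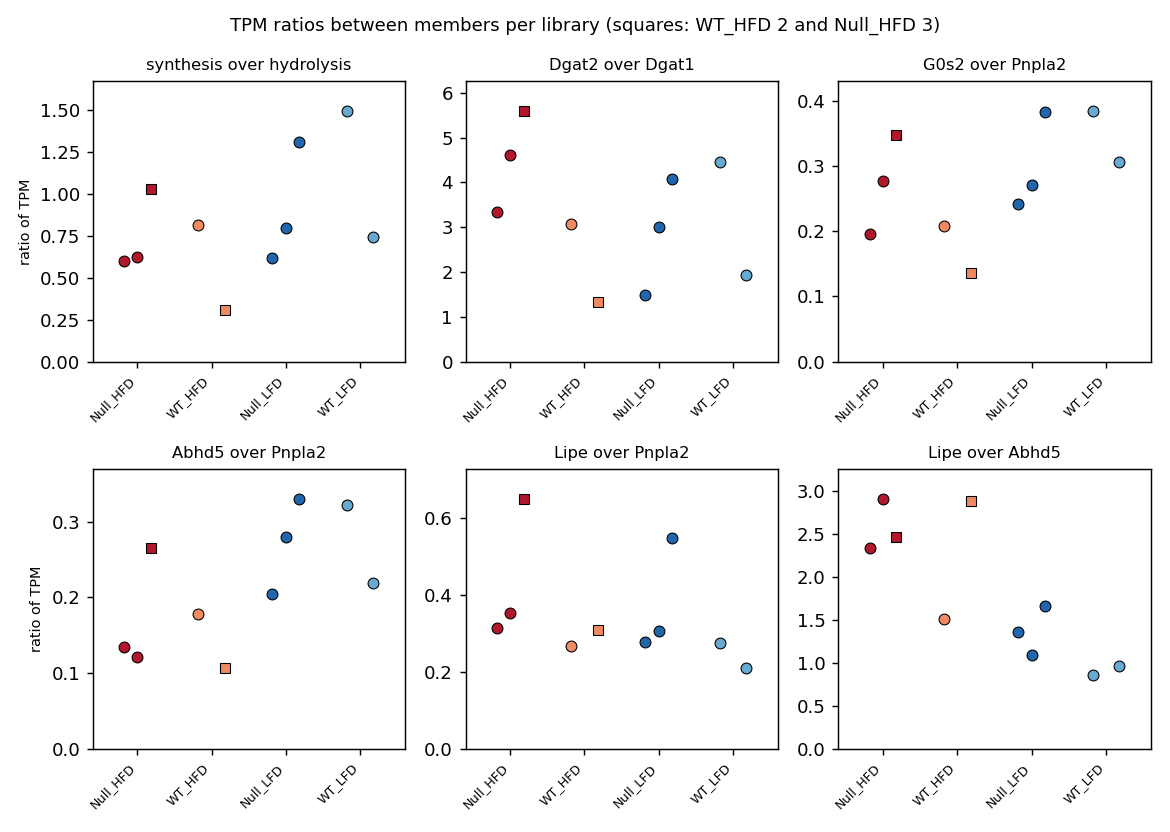
Ratios of TPM between genes within each library (linear axes from 0), 1 point per library, with squares for Null_HFD 3 and WT_HFD 2. Lipe over Abhd5 lies at 1.51 to 2.91 in the high-fat pads and at 0.857 to 1.66 in the low-fat pads.

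The wider pathway was followed in 2 lists, 18 other genes of glycerolipid assembly and 18 other genes of triglyceride hydrolysis and its control, of which all 18 and 17 were tested. None passed in any of the 7 comparisons (limma, adjusted p at most 0.05). At an unadjusted p under 0.05, the assembly list held 0 genes for averaged genotype, 1 for averaged diet and 2 for diet in wild type, and 0 in the other 4 comparisons. The hydrolysis list held 1 each for averaged genotype, averaged diet, diet in wild type and the interaction, 3 for genotype on the low-fat diet and 0 in the other 2. Over all genes tested, 3.82% to 9.69% had such a p, depending on the comparison. Between the genotypes, averaged over diets, 10 of the 18 assembly genes and 4 of the 17 hydrolysis genes had positive differences, beside 63.5% of all genes tested. Between the diets, averaged over genotypes, 6 of 18 and 8 of 17 were positive, beside 63.4%. In wild type alone 3 of the 18 assembly genes had positive diet differences, beside 67.1% of all genes. In null pads 8 of 18 had, beside 54.9%.

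Hilpda, whose product inhibits ATGL, had the smallest genotype p of the hydrolysis list. It measured 15.3, 19.6 and 20.4 TPM in Null_HFD pads and 12.3 and 14.4 TPM in WT_HFD pads, and 14.2, 19.0 and 17.0 TPM in Null_LFD pads and 10.6 and 9.30 TPM in WT_LFD pads. Within each diet every null pad lay above every wild-type pad, and over both diets only Null_LFD 1 (14.2 TPM) and WT_HFD 2 (14.4 TPM) crossed. Of all genes tested, 25.4% did not overlap on the low-fat and 15.5% on the high-fat diet, in either direction. The share for both diets at once was not computed. Hilpda was named for its small p, which such a placing helps to produce. The difference was 0.56 (SE 0.16, 95% interval 0.20 to 0.92), which did not pass over all genes (limma, adjusted p = 0.98). Abhd12, a monoacylglycerol and lysophospholipid hydrolase gene, differed by -0.36 and Plin1, a lipid droplet coat gene that binds ABHD5 and is also in the adipocyte marker list, by 0.41. In the assembly list the genotype differences with the smallest p were 0.44 for Acsl4, a long-chain acyl-CoA synthetase gene, 0.38 for Lpin3, a lipin, and -0.25 for Bscl2, the seipin gene of lipid droplet formation.

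Between the diets, Lpin3 measured 9.61, 7.94 and 7.48 TPM in Null_HFD, 5.66 and 11.0 TPM in WT_HFD, 5.38, 5.84 and 7.40 TPM in Null_LFD and 4.44 and 2.58 TPM in WT_LFD pads. Within each genotype all high-fat pads lay above all low-fat pads, though in null pads only by 7.48 against 7.40 TPM. Of all genes tested, 45.1% did not overlap in wild type and 11.1% in null pads, in either direction. The share for both genotypes at once was not computed. Lpin3, too, was named for its small p. The difference was 0.70 (SE 0.24, 95% interval 0.17 to 1.23, limma adjusted p = 0.513) and did not pass. Lpin2, another lipin, differed by 0.31 and Acsl4 by -0.39. Pnpla3, a lipid droplet acylhydrolase related to ATGL, measured 118, 158 and 71.9 TPM in Null_HFD and 82.7 and 61.3 TPM in WT_HFD pads, against 76.6, 90.9 and 104 TPM in Null_LFD and 341 and 179 TPM in WT_LFD pads. Both WT_LFD pads were higher than all 8 other libraries, as they were for Agpat2 and Abhd5. The share of all genes with this placing was not computed. Pnpla3 was named for its small diet p, which such a placing helps to produce. Its diet difference of -0.74 (SE 0.26, interval -1.33 to -0.16) did not pass (limma, adjusted p = 0.513). That average joins opposite signs, -1.78 in wild type (SE 0.40, limma adjusted p = 0.761) and 0.29 in null pads (SE 0.33, limma adjusted p = 0.857). The interaction was 2.07 (SE 0.52, interval 0.90 to 3.24) and did not pass (limma, adjusted p = 0.994). Plin1 differed by 0.40 and Hilpda by 0.26 between the diets.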

How the data were processed

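Groups follow the genotype and diet that the labels give each of the 10 libraries. The deposited file holds 1 value per gene symbol and library. Its unit was inferred from the values, which the authors deposited as log2(TPM + 1), since none is below 0 and TPM recovered from them added up to between 946188 and 954515 in each library. The submitters' processing notes name kallisto, limma and the build GRCm38, without versions or roles. Per the labels' protocols the libraries came from a stranded total RNA kit, and use of strand in the quantification is not given in the sources used here. TPM keeps no read numbers, so the depth per library is unknown. A line without a symbol (0.00544% to 0.0108% of TPM) was left out, and no column of values was left unused.

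The 16932 of 30319 genes that reached 1 TPM in 2 or more libraries were fitted as 4 group means with limma (3.58.1, R 4.3.3; empirical Bayes with a trend, 6 residual degrees of freedom), and 7 comparisons were tested two-sided. Benjamini-Hochberg adjustment ran over all genes tested, with calls at an adjusted p of 0.05 or less. The pseudocount of 1 makes log2(TPM + 1) differences understate those of low genes. The fit was checked by a test on simulated data. Alternatives were a pseudocount of 0.1, no filter, median-of-ratios scaling, values relative to the adipocyte markers, sample weights, a replicate block, leaving out each library, and leaving out Null_HFD 3 and WT_HFD 2 together.

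The genes and lists were chosen with earlier results of these data known. All 10 genes are named, then the 3 genes of each wider list with the smallest p in each averaged comparison, and the 5 genes nearest to the mean of the 10. In the other comparisons full statistics are given for the 3 of the 10 genes with the smallest p, a choice made after values were seen, as was the choice of promoters shown. List symbols absent from the file (Gpat4, Gpat3, Gk and Adgre1) were matched through RefSeq synonyms. Positions are from GENCODE M21 (GRCm38), 1-based, and promoter windows from RefSeq (GRCm38.p6).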

Additional observations from a re-analysis of the deposited data

How the results depend on the processing

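None of the 10 genes was called in any of the 7 comparisons under any of the alternatives run. Of 595 values of 35 single-gene differences under 17 alternatives, 574 kept their direction, and 25 differences kept their direction under every alternative. Part of these values could not change. Dropping the filter leaves each difference as it was. So does leaving out a library that is not in a comparison within 1 diet or 1 genotype. The tallies therefore overstate how far the directions were put to a test. For genotype averaged over diets, signs turned for Gpam under median-of-ratios scaling (-0.077), for Dgat1 (0.21), Abhd5 (0.086) and G0s2 (0.18) relative to the adipocyte markers, for Dgat2 without Null_HFD 3 and WT_HFD 2 (-0.11), and for Pnpla2 (0.036) and G0s2 (0.058) under the replicate block. For diet averaged over genotypes they turned for Mgll under median-of-ratios scaling (-0.048) and for Dgat2 without Null_HFD 3 and WT_HFD 2 (0.21). Leaving out each library in turn gave -0.29 to 0.24 for Gpam, -0.80 to 0.013 for Agpat2, -0.16 to 0.78 for Dgat2 and -0.41 to 0.010 for G0s2 between genotypes, -0.72 to 0.0057 for Lpin1 between genotypes on the high-fat diet, and -0.79 to 0.15 for Dgat2 and -0.021 to 0.27 for Mgll between diets. The cause of these turns was not tested.

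Over the whole table, calls for genotype (0 averaged, 0 low-fat, 2 high-fat) were 3, 5 and 1 with a pseudocount of 0.1, 15, 2 and 18 with no filter, and 2, 2 and 2 with sample weights. Without a filter the calls for diet were 3 averaged, 5 in wild type and 0 in null, against 0, 0 and 1, and 3 for the interaction, against 0. Diet within null gave 0 with a pseudocount of 0.1, 2 with sample weights, 3 with the replicate block and 2 without Null_HFD 3 and WT_HFD 2, where genotype on the high-fat diet gave 0. Relative to the adipocyte markers the averaged genotype comparison and the interaction each gave 1. Leaving out 1 library gave 0 to 2 calls for averaged genotype, 0 to 1 on the low-fat diet, 0 to 3 on the high-fat diet, and 0 to 2 for each diet comparison and the interaction. Same-numbered libraries of different groups did not deviate together (13 pairs, r from -0.35 to 0.41, 2 over 0.1), so the replicate numbers were not taken as pairing, and the block changed no other count of calls. With 2 or 3 libraries a group and unknown depth, a gene that was not called may still differ by any amount within its interval. Some single-gene intervals left out 0, as for Agpat2 and Abhd5 between the diets, but these differences did not pass over all genes.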
